A study of Mus musculus with 144 samples.

Results

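Among 29199 polyadenylation sites measured in mouse liver, 691 were highest in the light phase in wild-type total RNA. A polyadenylation site is the place where a transcript is cut and receives its poly(A) tail, and 1 gene can have several. A site entered the set when its level averaged at least 2 CPM over the day (counts scaled to a library total of 1000000), its highest time mean was at least 2 times its lowest, and the highest mean fell at zeitgeber time 6 or 10 (ZT6, ZT10: hours after lights on). The members were thus chosen by measured values of the wild-type total RNA libraries alone, so the daily pattern of those libraries is given as a description, with no test. The light-dark tests use the nuclear, polysomal and Bmal1-/- libraries, which took no part in the choice. The tests of mean level set each of these series against the same wild-type total libraries and are therefore not independent of the choice.

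The mice were male C57BL/6J animals kept in a 12 h:12 h light and dark cycle with free access to food. Each of the 4 series (wild-type total, wild-type nuclear, wild-type polysomal, Bmal1-/- total) held 36 libraries, 6 at each of ZT2, 6, 10, 14, 18 and 22. Nuclei came from a sucrose cushion, and polysomes from a sucrose gradient made in the presence of cycloheximide. QuantSeq libraries read the 3′ ends of transcripts. The labels do not say which part of Bmal1 was altered, whether it was lost in all tissues, or whether the 6 libraries of a time came from separate animals, so the p-values measure only the spread between these libraries.

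BMAL1 and CLOCK bind E-boxes and switch on, during the day, the genes of their own repressors (Per, Cry, Nr1d1, Nr1d2) and of output factors such as DBP and TEF, which act through D-boxes. In liver, this clock and the daily cycle of feeding together time the synthesis of bile acids, haem and glucose, and the burning of fat. Mice eat mainly at night, so the light phase is largely a time of fasting. A transcript can vary over the day through its synthesis, which nuclear RNA reflects most closely, or through its later processing, decay and loading onto ribosomes.

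RefSeq promoter windows of GRCm38.p6, from 250 bases before to 50 bases after an annotated gene start, were found for 391 of the 490 genes that held a light-phase site (539 windows). The E-box CACGTG, which reads the same on both strands, was present in 10.8% of these windows, against 10.5% of the 8367 windows of all genes with a site of at least 2 CPM and 7.15% of all 32851 windows. The D-box TTATGTAA, searched on both strands, was in 1.11%, against 0.586% and 0.938%. Of the 40 genes with a ratio of at least 4 between highest and lowest time, 33 had a window and 4 of these, Per3, Per1, Tef and Coq10b, held either motif. The E-box was in 4 of the 42 windows of these genes (9.52%), against the 10.5% of all genes with a site of at least 2 CPM, and the D-box in 2 (4.76%). The windows with a match are shown so that the letters searched for can be seen in place. Most genes with such ranges had neither. Each is written 5′ to 3′ on the gene's strand, with the E-box or D-box in capitals.
Per3, chr4:151044616-151044915, minus strand, D-boxes 205 and 158 bases before the start: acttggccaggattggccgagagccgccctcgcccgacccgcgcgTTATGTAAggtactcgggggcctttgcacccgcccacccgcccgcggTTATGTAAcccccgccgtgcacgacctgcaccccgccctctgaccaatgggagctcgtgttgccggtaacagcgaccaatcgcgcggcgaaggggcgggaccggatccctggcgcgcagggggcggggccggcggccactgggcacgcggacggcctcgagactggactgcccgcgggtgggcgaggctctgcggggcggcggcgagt
Per1, chr11:69098699-69098998, plus strand, E-box 166 bases before the start: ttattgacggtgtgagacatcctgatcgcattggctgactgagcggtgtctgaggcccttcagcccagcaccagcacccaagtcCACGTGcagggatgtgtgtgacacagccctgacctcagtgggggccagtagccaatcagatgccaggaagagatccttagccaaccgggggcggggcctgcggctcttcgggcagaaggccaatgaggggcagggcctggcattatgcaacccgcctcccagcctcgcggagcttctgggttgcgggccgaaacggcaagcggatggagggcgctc
Tef, chr15:81802423-81802722, plus strand, E-box 127 bases before the start: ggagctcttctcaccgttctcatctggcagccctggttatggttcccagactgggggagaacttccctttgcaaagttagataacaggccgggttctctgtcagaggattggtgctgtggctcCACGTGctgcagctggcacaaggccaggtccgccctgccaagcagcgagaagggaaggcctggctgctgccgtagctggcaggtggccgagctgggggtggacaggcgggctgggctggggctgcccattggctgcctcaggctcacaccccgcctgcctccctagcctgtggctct
Tef, second annotated start, chr15:81811164-81811463, plus strand, E-box 138 bases before the start: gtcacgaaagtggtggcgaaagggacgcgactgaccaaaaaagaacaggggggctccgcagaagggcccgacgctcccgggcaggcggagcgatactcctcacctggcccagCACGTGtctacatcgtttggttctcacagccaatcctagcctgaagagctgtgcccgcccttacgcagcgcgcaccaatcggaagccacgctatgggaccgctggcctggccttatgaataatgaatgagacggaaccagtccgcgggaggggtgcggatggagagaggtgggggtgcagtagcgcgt
Coq10b, chr1:55052520-55052819, plus strand, D-box 162 and E-box 78 bases before the start: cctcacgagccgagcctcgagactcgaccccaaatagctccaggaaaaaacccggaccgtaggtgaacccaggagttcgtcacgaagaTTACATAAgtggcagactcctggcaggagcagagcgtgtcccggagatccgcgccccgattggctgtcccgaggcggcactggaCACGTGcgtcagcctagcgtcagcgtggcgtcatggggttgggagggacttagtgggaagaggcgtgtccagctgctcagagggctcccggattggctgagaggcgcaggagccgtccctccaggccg
The RORE, a pattern bound by REV-ERB and ROR receptors, was in 0 of the 539 windows, against 0.155% of windows of all genes with such a site. The cAMP response element TGACGTCA was in 2.41%, against 3.04%. No match says only that these letters were not in the window.

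Depth was the sum of site counts in a library. The lowest and highest library totals were 4079501 and 7771094 for wild-type total RNA, 1404964 to 5720115 in nuclear RNA, 1742356 to 10477400 in polysomal RNA and 3175685 to 12217394 in Bmal1-/- RNA. Transcripts of Arntl, the gene of BMAL1, were counted in Bmal1-/- libraries at 11.5 ± 2.98 CPM (SD, 5.17 to 18.6) and in wild-type total RNA at 6.74 ± 5.40 CPM (0.251 to 19.3). A 3′ tag outside the altered part checks nothing, so this level does not test the labels. Hepatocyte markers summed to at least 16980 CPM in every library. In 10 libraries a marker stood far above its series: Xist, a transcript of female cells, was at 165 to 4363 CPM in 1 ZT22 library of each series although the labels say male, the macrophage gene Marco passed 50 CPM in 3 ZT10 libraries, and the acute-phase gene Saa2 passed 500 CPM in 3 libraries. For Xist and Marco the wild-type total and nuclear libraries that stood out had the same number, and in polysomal RNA both stood out at the same times under other numbers. Deviations from the group means went with this: the correlation was 0.374 between same-numbered wild-type total and nuclear libraries, and 0.370 between wild-type total number 5 and polysomal number 1, the highest of 36 pairs of numbers. Nuclear and polysomal values may thus come from animals that also chose the sites, which the labels do not settle. Beside each count below, the value without these 10 libraries is given where it moved by more than 1.5 times.

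Most light-phase sites had modest daily ranges in wild-type total RNA. The median ratio of highest to lowest time mean was 2.34, 437 of the 691 sites were below 2.5, 64 reached 4 and 21 reached 10. Mean levels were low, with a median of 4.79 CPM, 352 sites between 2 and 5 CPM and 47 at 50 CPM or more. The most abundant was a site of Pck1, the gluconeogenic enzyme PEPCK, at 851 CPM. The highest time was ZT6 at 249 sites and ZT10 at 442. The lowest was ZT2 at 227 sites, ZT22 at 205 and ZT18 at 184, so some were already near their lowest just after lights on. At the edge of the rule, sites of Rbms1 and Rnf111 entered with ratios of 2.004, and sites of Rbl2 and Csnk1g3 stayed out with 1.998.

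Fewer of these sites lay at an annotated gene end than among sites in general. Of the 628 sites given to a gene, 143 (22.8%) lay within 50 bp of the gene's annotated end, against 30.9% of all sites of at least 2 CPM, and 479 (76.3%) lay inside the gene's span, against 68.2%. The other 63 sites were given to no gene. Exon and intron positions are not analysed here. Most genes, 397 of 490, held 1 light-phase site, 66 held 2 and 27 held 3 or more. Ppara held 5. In 303 of the 357 genes with several sites of at least 2 CPM, at least 1 such site was not in the set.

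The summed level of the 691 sites shows how far their total kept the pattern in RNA that took no part in the choice. Abundant sites weigh most in this sum. The median site held 4.79 CPM in wild-type total RNA and the highest 851 CPM, so the sum does not show how many sites kept the pattern. In wild-type total RNA, which chose the sites, the sum was 9483 CPM at ZT2 and 18323 CPM at ZT10. In nuclear RNA it was 11364 ± 2123 CPM (SD, 6 libraries) at ZT2, 17750 ± 3119 CPM at ZT6, 20331 ± 2015 CPM at ZT10 and 11193 ± 998 CPM at ZT22. In polysomal RNA it was 9229 ± 1804 CPM at ZT2, 16170 ± 1527 CPM at ZT10 and 8638 ± 1225 CPM at ZT22. All 6 ZT10 libraries lay above all 6 ZT22 libraries in both fractions. In Bmal1-/- RNA the time means stayed between 10196 CPM at ZT6 and 11310 CPM at ZT18, and the libraries of all times overlapped.

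**Figure D1:**
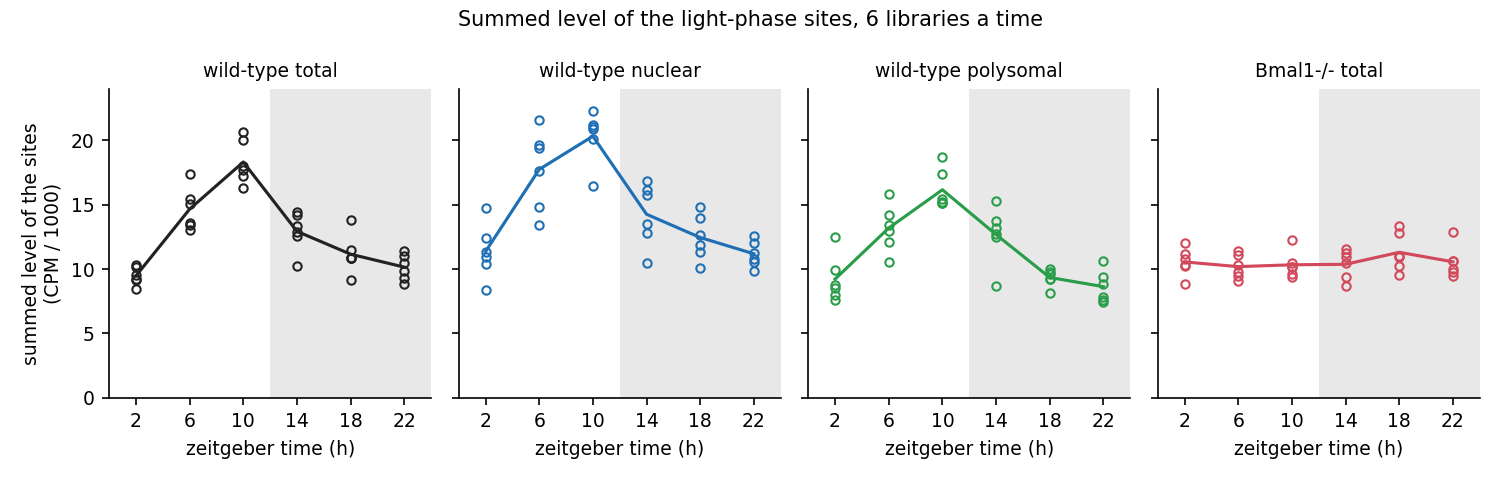
Summed level of the 691 light-phase sites (vertical axis, CPM divided by 1000) in each library (circles) by zeitgeber time (horizontal axis, hours), with lines through the means of 6 libraries and the dark phase shaded. Wild-type total RNA chose the sites; the nuclear and polysomal sums were highest at ZT10, at 20331 and 16170 CPM, and the Bmal1-/- time means lay between 10196 and 11310 CPM.

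Nuclear RNA kept the light-phase pattern at many of the sites deep enough to test. In nuclear libraries, 80 light-phase sites of 53 genes were higher in the light (mean of ZT6 and ZT10) than in the dark (mean of ZT18 and ZT22) and 0 were lower, at an adjusted p below 0.05 by edgeR's quasi-likelihood test with Benjamini-Hochberg adjustment. They were among 402 of the 691 sites that averaged at least 10 counts per nuclear library, and the other 289 were not tested. Over all 13402 sites tested, 1.01% were called higher and 1.22% lower. Among called sites averaging at least 30 counts per library, the largest rises were at sites of Dbp, Nr1d1, Nr1d2, Gpcpd1 (a glycerophosphocholine phosphodiesterase) and Alas1 (the rate-limiting enzyme of haem synthesis). The median log2 change of the 402 was 0.42, against -0.03 over all sites tested, and 339 of them were above 0. Fewer cells of a type and less RNA per cell cannot be told apart in such bulk samples. At 9 sites of 7 genes all 12 light libraries lay above all 12 dark libraries, which 0.0746% of all sites tested did.

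Polysomal RNA gave a like count. In polysomal libraries, 65 light-phase sites of 47 genes were higher in the light than in the dark and 0 were lower by the same edgeR test, among 452 tested, where 0.929% of all 16580 sites tested were called higher and 1.04% lower. Among called sites averaging at least 30 counts per library, the largest rises were at sites of Nr1d1, Dbp, Clec2h (a C-type lectin) and Rgs16 (a regulator of G protein signalling). The median log2 change of the 452 was 0.51, against 0.00 over all sites tested, and 377 were above 0. At 11 sites all 12 light libraries lay above all 12 dark libraries, which 0.0784% of all sites tested did. Among them were sites of Dbp, Nr1d1, Nr1d2, Clec2h, Gpcpd1, Casp6, Ank3, Cirbp, Jade1 and Gabarapl1, which were chosen for mention after their values were seen. The 4 airway epithelium markers, whose median sum over polysomal libraries was 0.274 CPM, reached 227 CPM in the light and 552 CPM in the dark in libraries of polysomal replicate 1, and without that replicate 59 sites were called higher. The 5 exocrine pancreas markers, with a median sum of 25.4 CPM, reached 1066 CPM in 1 light library and at most 78.2 CPM in the dark. Without the 2 polysomal libraries above 500 CPM, a choice made after seeing the data, 54 sites were called higher and 0 lower.

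**Figure D2:**
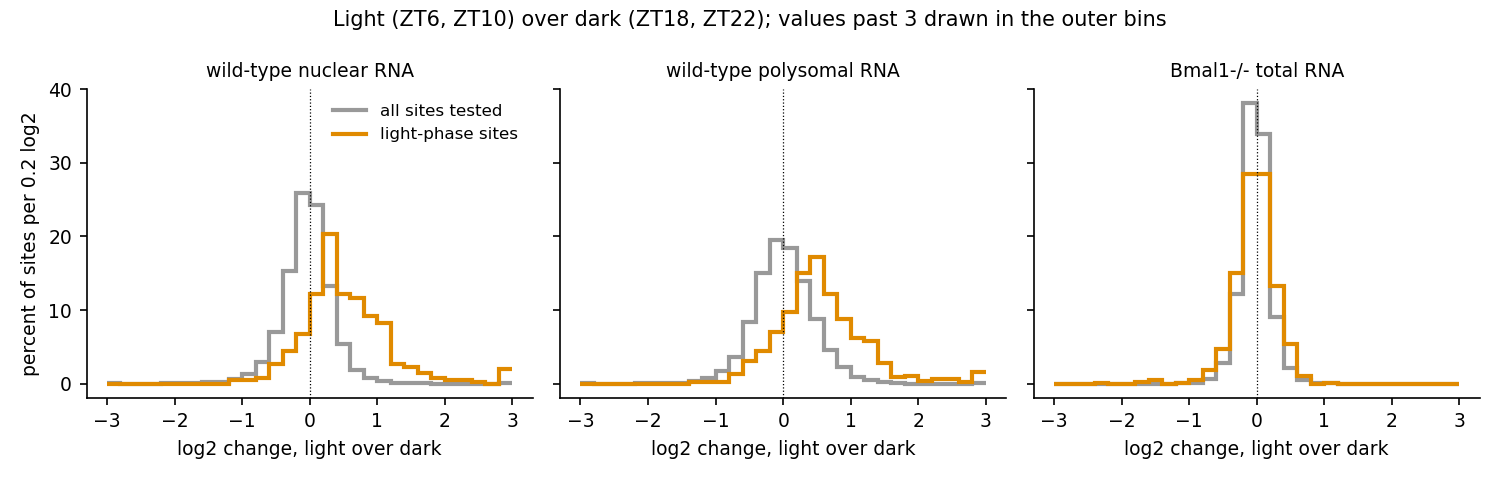
Distribution of the log2 change from dark (ZT18, ZT22) to light (ZT6, ZT10) in 0.2-wide bins (horizontal axis) as percent of sites (vertical axis) for light-phase sites (orange) and all sites tested (grey). The orange curve lies to the right of the grey one in nuclear (medians 0.42 and -0.03) and polysomal RNA (0.51 and 0.00) and over it in Bmal1-/- RNA (-0.01 and -0.02).

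The wider the wild-type range, the more often a site was called in the fractions. In nuclear RNA 30 of 250 tested sites with a ratio of 2 to 2.5 were higher in the light, 26 of 106 with a ratio of 2.5 to 4, 15 of 31 with a ratio of 4 to 10, and 9 of 15 at 10 or more. In polysomal RNA these were 28 of 277, 19 of 125, 10 of 36 and 8 of 14. Over all sites tested, 1.01% in nuclear and 0.929% in polysomal RNA were called higher. Among the 316 sites tested in both fractions, 40 sites of 31 genes were higher in both, which is 55.6% of the 72 called in nuclear RNA and 70.2% of the 57 called in polysomal RNA. The same shares were not counted over all sites, so they are not shown to be particular to the set. A test of the difference itself between the fractions, polysomal minus nuclear light against dark, added after the data were seen, called 0 of 470 light-phase sites by edgeR (40 at an unadjusted p below 0.05) and 0.0% of all sites tested, so a call in 1 fraction alone is not shown to be particular to it.

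The fractions mostly kept a highest time in the light phase, and Bmal1-/- RNA did not. ZT6 or ZT10 was the highest nuclear time at 313 of 402 tested light-phase sites (77.9%, against 41.8% of all sites tested) and the highest polysomal time at 331 of 452 (73.2%, against 30.9%). The exact wild-type time was kept less often: in nuclear RNA at 72 of 134 sites highest at ZT6 and 165 of 268 highest at ZT10, and in polysomal RNA at 87 of 158 and 176 of 294. A cosine of 24 h placed the peak in polysomal RNA a median of 0.569 h after that in nuclear RNA at the 69 sites with a fitted rhythm in both, and it was later at 56 of them. Sampling every 4 h limits such a difference, and both fractions were scaled apart. In Bmal1-/- RNA only 181 of 656 tested sites (27.6%, against 22.5%) were highest at ZT6 or ZT10. ZT18 was the most frequent highest time, at 198. It was also the most frequent over all sites tested there, at 5032 of 20191, so this is not particular to the set.

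In Bmal1-/- liver the test called no light-phase site between light and dark. Of the 656 light-phase sites tested, 0 were higher (0.0% of all 20191 sites tested) and 0 lower (0.0%) in the light by edgeR, 34 had an unadjusted p below 0.05 (12 of them higher in the light), and DESeq2 called 0. Their median log2 change was -0.01, against -0.02 over all sites tested. At 0 of the 656 sites did all light libraries lie above all dark libraries. The difference itself was tested against each wild-type fraction, a choice made after seeing the data: the change from dark to light was smaller in Bmal1-/- than in nuclear wild-type RNA at 44 of 594 light-phase sites and larger at 0 (0.765% of all sites were called in either direction), and smaller than in polysomal wild-type RNA at 39 of 622 and larger at 0 (0.878%). Genotype and RNA fraction cannot be told apart in these 2 comparisons.

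Genes of the D-box activator DBP and of REV-ERB alpha, which represses Arntl, held the sites with the 5 widest ranges. At the Dbp site chr7:45709862-45709997 (plus strand, inside the gene), wild-type total RNA held 0.386 CPM at ZT2 and 51.8 CPM at ZT10, a ratio of 134. In nuclear RNA its 12 light libraries ran from 18.1 to 74.2 CPM with a median of 38.3 CPM, and its 12 dark libraries from 0 to 2.14 CPM with a median of 0.783 CPM. The groups did not overlap, and the log2 change was 5.38 ± 0.41 (SE, adjusted p = 4.97e-12, edgeR). In polysomal RNA the light libraries ran from 3.64 to 102 CPM with a median of 28.4 CPM and the dark ones from 0 to 2.76 CPM with a median of 1.27 CPM. Again there was no overlap, with a log2 change of 4.59 ± 0.53 (adjusted p = 6.62e-07, edgeR). In Bmal1-/- RNA it was at 0.829 to 2.96 CPM in the light and 0.582 to 2.09 CPM in the dark, which overlapped, and the log2 change of 0.48 ± 0.30 did not pass the test. Averaged over the 6 times on the log scale, the Bmal1-/- level was lower by 1.52 ± 0.21 log2 than in wild-type total RNA (log2 change -1.52, adjusted p = 2.42e-08, edgeR). The direction was not the same all day. Its mean was lower at ZT6, ZT10, ZT14 and ZT18 and higher at ZT2 and ZT22. At ZT2 the Bmal1-/- libraries ran from 0.813 to 2.85 CPM against 0 to 0.950 CPM. At ZT22 they ran from 0.617 to 1.95 CPM against 0.156 to 0.830 CPM, and the ranges overlapped at both times. All 4 light-phase sites of Dbp had wild-type ratios of 82.0 or more.

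Nr1d1, which encodes REV-ERB alpha, was highest at ZT6. At its annotated end (chr11:98767928-98767975, minus strand) nuclear light libraries ran from 15.2 to 105 CPM with a median of 54.3 CPM, and nuclear dark libraries from 0.930 to 5.31 CPM with a median of 2.37 CPM. Polysomal light libraries ran from 20.5 to 113 CPM with a median of 66.4 CPM, and polysomal dark libraries from 0 to 7.04 CPM with a median of 2.34 CPM. Light and dark did not overlap in either fraction, and the log2 changes were 4.30 ± 0.33 in nuclear (adjusted p = 4.97e-12, edgeR) and 4.69 ± 0.41 in polysomal RNA (adjusted p = 1.63e-09). In Bmal1-/- RNA the site stayed between 0 and 1.58 CPM in the light and dark libraries, below the count needed for the light-dark test, and its level was -3.56 ± 0.24 log2 against wild-type total RNA (adjusted p = 2.0e-20, edgeR).

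Nr1d2, which encodes REV-ERB beta, peaked later and differed in how its sites stood in the nucleus. At its end site (chr14:18204053-18204118, minus strand) nuclear light libraries ran from 8.27 to 41.2 CPM with a median of 14.2 CPM and nuclear dark ones from 0 to 7.95 CPM with a median of 2.62 CPM. Polysomal light libraries ran from 32.9 to 100.0 CPM with a median of 80.9 CPM and dark ones from 4.28 to 32.9 CPM with a median of 15.6 CPM. The nuclear groups did not overlap, 11 of the 12 polysomal light libraries lay above all dark ones, and the log2 changes were 2.44 ± 0.39 (adjusted p = 7.39e-05, edgeR) and 2.4 ± 0.23 (adjusted p = 6.92e-09). Its nuclear level was -1.73 ± 0.19 log2 against total RNA and that of its second site -3.29 ± 0.23, whereas the Nr1d1 end site was at 1.34 ± 0.19, all past the test by edgeR. Bmal1-/- RNA held the Nr1d2 end site at -2.82 ± 0.16 log2 (adjusted p = 9.64e-23).

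**Figure D3:**
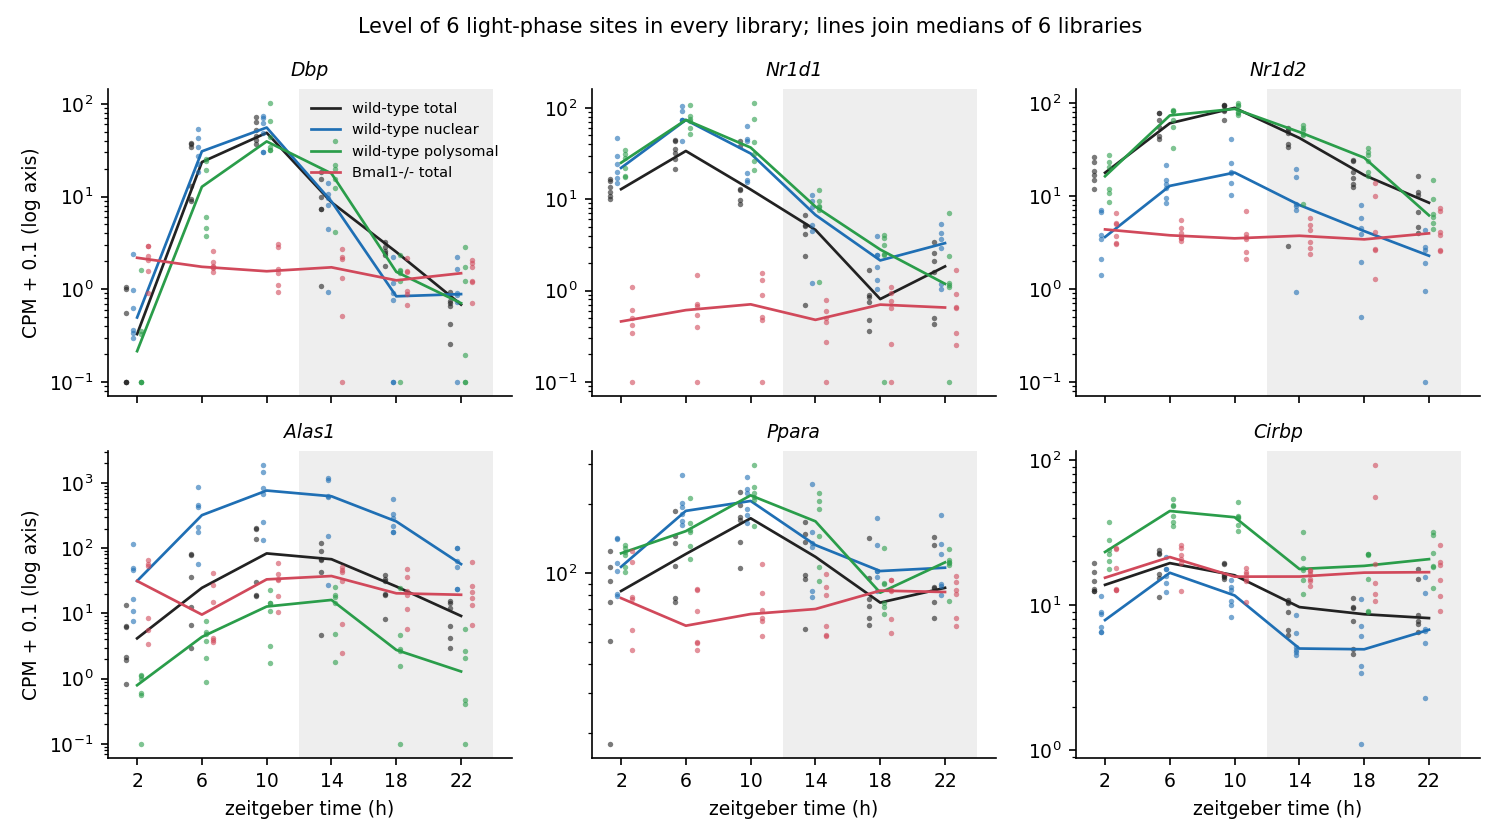
Level (CPM + 0.1, log axis) of 6 light-phase sites by zeitgeber time (hours, dark phase shaded) in every library (points), with lines through the medians of 6 libraries. The wild-type series of Dbp, Nr1d1 and Nr1d2 rise far above the Bmal1-/- series in the light, Alas1 spreads by RNA fraction, and the Cirbp site has its highest polysomal values at ZT6, 43.9 ± 7.42 CPM (SD).

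TEF, a further D-box activator, was called in the nucleus and not on polysomes. Its end site (chr15:81826734-81826871, plus strand) ran from 117 to 380 CPM in nuclear light libraries, with a median of 226 CPM, and from 42.0 to 175 CPM in nuclear dark ones, with a median of 66.3 CPM. Of the light libraries 9 lay above all dark ones, and the log2 change was 1.48 ± 0.19 (adjusted p = 1.33e-06, edgeR). In polysomal RNA the light libraries (22.3 to 359 CPM, median 115) and dark libraries (57.1 to 246 CPM, median 104) overlapped widely, with a log2 change of 0.08 ± 0.22 (adjusted p = 0.923). Its polysomal time means were 74.1 ± 35.5 CPM at ZT6, 212 ± 93.4 CPM at ZT10, 192 ± 81.6 CPM at ZT14 and 154 ± 53.8 CPM at ZT18. Polysomal Tef was thus high from ZT10 into the dark phase. The mean over the day of this Tef site was not called different in Bmal1-/- RNA (-0.12 ± 0.09 log2, adjusted p = 0.296), where it stayed between 78.1 and 96.4 CPM at all times.

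The list of clock repressors and outputs, 18 genes long, had 36 sites of at least 2 CPM, and 20 of them, in 10 genes, were light-phase sites. In nuclear RNA 9 of 16 tested were higher in the light, with a median log2 change of 1.55. In polysomal RNA 6 of 16 were, with a median of 0.45. Over all tested light-phase sites these shares were 19.9% and 14.4%, and over all sites tested 1.01% and 0.929%. In Bmal1-/- RNA 0 of 18 were higher than in wild-type total RNA over the day and 12 were lower. Of all tested light-phase sites 13.6% were higher and 31.3% lower. Earlier results of these data were known when the list was drawn up, so it is no independent evidence. The 2 sites of the activators Arntl, Clock and Npas2 that reached 2 CPM were highest around lights on and are not in the set.

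Several other genes of the list were called in 1 fraction or in none. The deubiquitinase gene Usp2 had 3 light-phase sites with ratios of 46.3 to 69.7. Its end site was at 3.33 ± 1.84 CPM at ZT6 and 33.7 ± 6.28 CPM at ZT10 in nuclear RNA, and still at 12.9 ± 4.97 CPM at ZT18, so the light-dark contrast of 0.30 ± 0.29 log2 averaged a low and a high time. Per1 was likewise not called, at 0.40 ± 0.30 log2 in nuclear RNA (adjusted p = 0.703, edgeR), and sites of Noct (ratio 7.69), Bhlhe40 (2.80 and 2.74) and Hlf (2.54) were not called where they could be tested. The Per3 site with a ratio of 28.4 ran from 0.787 to 23.0 CPM in nuclear light and from 0 to 5.58 CPM in nuclear dark libraries and was called there (2.32 ± 0.41 log2, adjusted p = 0.000435), while in polysomal RNA it was at 0.57 ± 0.58 log2 (adjusted p = 0.734). Rgs16, which is not on the list, was called in both fractions. At its end site the libraries of 1 group differed widely, from 1.92 to 81.1 CPM in nuclear light libraries. Its changes were 3.97 ± 0.62 log2 in nuclear (adjusted p = 6.75e-05, edgeR) and 3.52 ± 0.60 log2 in polysomal RNA (adjusted p = 0.000596).

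Alas1 held 4 light-phase sites inside the gene, with far higher levels in nuclear than in polysomal RNA. At chr9:106241447-106241572 (minus strand) the nuclear light libraries ran from 56.4 to 1888 CPM with a median of 448 CPM, and the nuclear dark ones from 23.7 to 567 CPM with a median of 140 CPM. Polysomal light libraries held 0.790 to 22.7 CPM with a median of 4.93 CPM. The nuclear groups overlapped, and the log2 change of 2.02 ± 0.50 (adjusted p = 0.0195, edgeR) no longer passed with the replicate number as a block, at 1.5. Over the day the nuclear level was 3.53 ± 0.33 log2 above total RNA (adjusted p = 2.89e-15) and the polysomal level was -2.72 ± 0.33 log2 (adjusted p = 7.04e-11). Another 2 of its sites were at 4.64 ± 0.33 and 4.22 ± 0.34 log2 in nuclear RNA. A site nearer the gene end, with 141 CPM in wild-type total RNA, was highest at ZT14 and is not in the set.

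Sites of fasting and fat-burning genes were in the set through 7 genes of the list, with 15 of its 77 sites of at least 2 CPM. In nuclear RNA 2 of 13 were higher in the light and in polysomal RNA 2 of 14. Over all tested light-phase sites these shares were 19.9% and 14.4%, so the list did not stand out. Ppara encodes the nuclear receptor that drives fatty acid oxidation in fasting. Its site chr15:85801562-85801738 (plus strand, inside the gene) ran from 162 to 268 CPM in nuclear light libraries (median 192) and from 80.6 to 180 CPM in nuclear dark ones (median 102), and from 115 to 297 CPM (median 187) and 66.5 to 129 CPM (median 99.4) in polysomal RNA. Above all dark libraries lay 9 of the 12 nuclear and 11 of the 12 polysomal light ones, and the log2 changes were 0.76 ± 0.17 (adjusted p = 0.00629, edgeR) and 0.87 ± 0.15 (adjusted p = 0.000589). Over the day 12 of the 15 sites of the list were lower in Bmal1-/- than in wild-type total RNA. Of all tested light-phase sites 31.3% were lower, and of all sites tested 16.2%. The 15 sites lie in 7 genes, and sites of 1 gene are not separate evidence. Among the lower ones were this Ppara site at -0.59 ± 0.11 log2 and a site of Lpin2, a phosphatidate phosphatase, at -0.78 ± 0.11. The 1 site that was higher was given to Cyp4a31, which has near-identical copies, so its assignment is uncertain.

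Glucose genes showed a like picture on fewer sites. The list of gluconeogenesis, glycogen and insulin response genes had 7 light-phase sites among 43, in Pck1, Gys2 and Slc2a2. Of these, 1 of 7 tested was called higher in each fraction, against 19.9% and 14.4% of all tested light-phase sites, so the list did not stand out. It was a site of the glucose transporter gene Slc2a2. Its change was 0.96 ± 0.20 log2 in nuclear RNA (adjusted p = 0.00332, edgeR) and 0.76 ± 0.21 in polysomal RNA (adjusted p = 0.0495). Gys2, liver glycogen synthase, was not called in the fractions, and over the day it was at -1.20 ± 0.10 log2 in Bmal1-/- RNA (adjusted p = 1.96e-16), with light libraries of 15.8 to 39.5 CPM there against 37.2 to 144 CPM in wild-type total RNA. Its ranges overlapped only at their edges, but the wild-type light values also chose the site, so this is not independent of the choice. The main Pck1 site, at 468 to 2333 CPM in wild-type light libraries, was not called in the fractions or in the Bmal1-/- level.

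Bile acid and cholesterol genes gave 9 light-phase sites among 73, in 5 genes. Abcg8, which with Abcg5 exports sterols into bile, carried the calls, 2 of 6 tested sites in nuclear RNA and 1 of 6 in polysomal RNA. Over all tested light-phase sites 19.9% and 14.4% were called higher in the light, and the list was not tested as a set. At its end site (chr17:84700149-84700344, plus strand) nuclear light libraries ran from 59.7 to 151 CPM with a median of 97.6 CPM, and nuclear dark ones from 19.9 to 49.4 CPM. There was no overlap, and the log2 change was 1.32 ± 0.19 (adjusted p = 1.08e-05, edgeR). The polysomal change was 1.10 ± 0.22 (adjusted p = 0.00252). Of the 9 sites 0 were lower in Bmal1-/- RNA over the day and 3 were higher, each of Abcg8, the end site at 0.37 ± 0.10 log2 (adjusted p = 0.00301). Among all tested light-phase sites 31.3% were lower and 13.6% higher. The 2 light-phase sites of Cyp7a1, the rate-limiting enzyme of bile acid synthesis, were not called in either fraction.

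The other lists gave few sites each. The cold-inducible RNA-binding protein gene Cirbp had the only light-phase site among 41 heat shock and temperature sites, of which 21 were instead highest at ZT14 or ZT18. In polysomal RNA the Cirbp site ran from 32.1 to 53.8 CPM in the light and from 8.83 to 31.9 CPM in the dark, with no overlap and a log2 change of 1.05 ± 0.18 (adjusted p = 0.000589, edgeR), and its nuclear change was 1.02 ± 0.25 (adjusted p = 0.0142). Averaged over the day it was 0.59 ± 0.13 log2 higher in Bmal1-/- than in wild-type total RNA, but not at each time alike. At ZT18 the Bmal1-/- libraries ran from 10.5 to 92.3 CPM, with 2 of them at 55.3 and 92.3, against 4.51 to 11.2 CPM. At ZT6 they ran from 12.3 to 25.8 CPM against 11.2 to 23.7 CPM, which overlapped. Junb, an immediate early transcription factor, was higher in the light in both fractions (1.28 ± 0.20 and 1.21 ± 0.24 log2), as was Gabarapl1 of the autophagy list (0.93 ± 0.16 and 0.72 ± 0.13). Wee1, a kinase that holds back mitosis, was called in nuclear RNA alone (1.05 ± 0.29, adjusted p = 0.0375). Of 83 amino acid and one-carbon sites 10 were in the set. Of these, 2 of 7 tested in nuclear and 2 of 8 in polysomal RNA were called higher, of the amino acid transporter genes Slc38a4 and Slc7a2. Of 70 xenobiotic sites 7 were in the set, 2 of 7 tested being called in nuclear RNA, both of Alas1, and 0 of 4 in polysomal RNA. Over all tested light-phase sites 19.9% were called higher in nuclear and 14.4% in polysomal RNA. The lipogenesis list had 42 sites of at least 2 CPM and 0 in the set.

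The mean level over the day, against wild-type total RNA, shows where these transcripts stood in the cell and what was left of them in the mutant. The wild-type libraries that chose the sites are 1 side of each of these comparisons, so a lower level elsewhere is not independent of the choice. In Bmal1-/- total RNA 93 of 683 tested light-phase sites were higher and 214 lower by edgeR, where 17.2% of all 19962 sites tested were higher and 16.2% lower. The median log2 difference was -0.15, against 0.00 over all sites. By size, 14 sites were at least 2-fold higher and 56 at least 2-fold lower.

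The Bmal1-/- level is set here beside the wild-type time means, whose spread the rule itself fixed, so the counts are a description. The Bmal1-/- mean over the day lay between the lowest and highest wild-type time means at 520 of the 691 sites, at or below the lowest at 99, and at or above the highest at 72. Among sites with a wild-type ratio of 10 or more 12 of 17 tested were lower, with a median of -1.34 log2, and among those with a ratio of 2 to 2.5 112 of 435, with a median of -0.08. Of the 64 sites with a ratio of at least 4, 15 lay at or below the wild-type lowest and 0 at or above the highest.

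**Figure D4:**
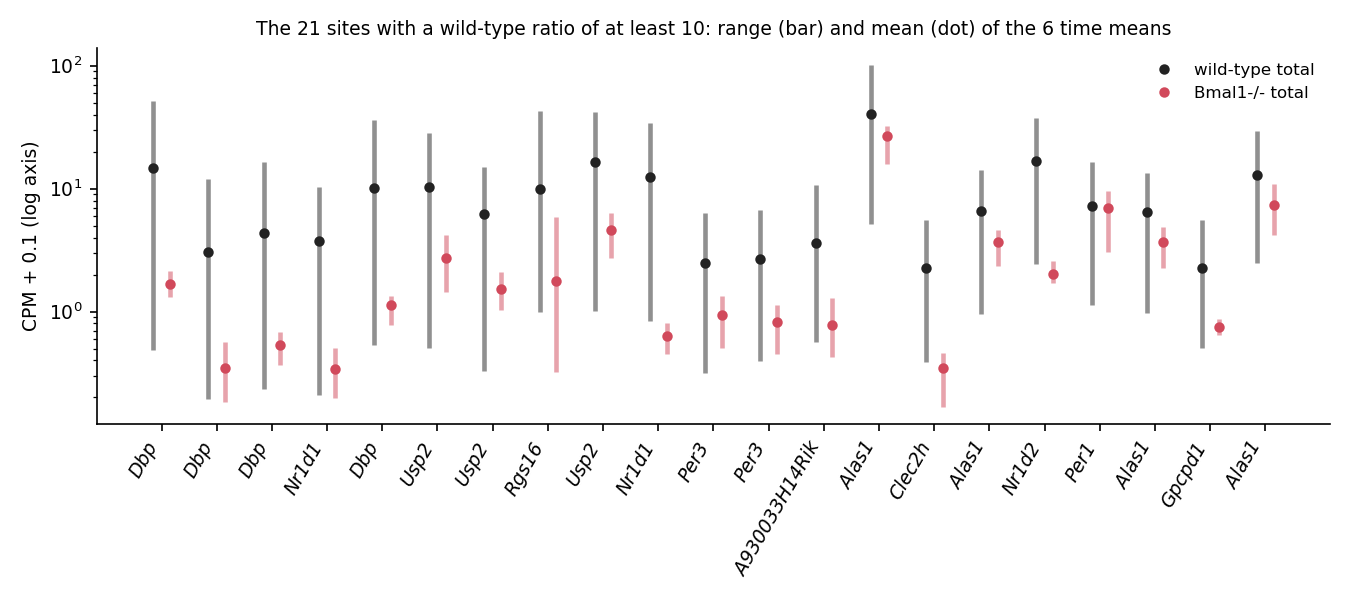
Range (bar) and mean (dot) of the 6 time means (CPM + 0.1, log axis) in wild-type total RNA (dark) and Bmal1-/- total RNA (red) for the 21 sites with a wild-type ratio of at least 10, in order of that ratio. Bmal1-/- bars are short, near the wild-type bottom for Nr1d1 and near the wild-type mean for Per1, whose level was not called different (0.34 ± 0.17 log2, adjusted p = 0.101).

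Among called sites of at least 30 counts per library with 1 direction at all 6 times, the largest falls in the mutant were at clock genes and at genes of other roles. Besides the Nr1d1 and Nr1d2 end sites, a site of the sulfotransferase gene Sult5a1 was at -3.04 ± 0.23 log2, with light libraries of 0.226 to 4.65 CPM against 5.53 to 23.3 CPM in wild-type total RNA. These ranges did not overlap, but the wild-type light values also chose the site, so the gap is not independent of the choice. A site of Mup17 was at -3.88 ± 0.56, but major urinary protein genes have near-identical copies and its assignment is uncertain. The largest rises were at Ndrg1, a stress-responsive gene, at 2.19 ± 0.20 log2 (adjusted p = 1.04e-14, edgeR), at 2 sites of Serpina7, which encodes thyroxine-binding globulin, at 1.60 ± 0.21 and 1.47 ± 0.22, and at the organic anion transporter gene Slco1a4 at 1.49 ± 0.17. The Ndrg1 site ran from 4.07 to 27.7 CPM in Bmal1-/- light libraries and from 1.05 to 9.29 CPM in wild-type ones, which overlapped.

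Nuclear and polysomal levels differed from total RNA at most sites, in the set as elsewhere. In nuclear RNA 251 of 593 light-phase sites were higher and 220 lower (39.8% and 42.9% of all 17649 sites tested), with a median of 0.11 log2 against -0.05 over all. In polysomal RNA 143 of 634 were higher and 299 lower (37.4% and 37.6% of all 18671), with a median of -0.40 against -0.01. Scaling by median-ratio size factors in place of TMM moved the median of all sites to -0.27 in nuclear and -0.23 in polysomal RNA, and the splits of the light-phase sites to 211 higher against 251 lower and to 107 against 355. Relative to the median of all sites, the light-phase sites lay 0.16 log2 above in nuclear RNA under both scalings, and in polysomal RNA at -0.39 and -0.38. Sites highest at ZT14 or ZT18 also had more polysomal falls than rises, 222 and 108 of 475, so this is not shown to be particular to the light phase.

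Position in the gene went with the polysomal level. Light-phase sites inside the gene's span had a median polysomal level of -0.54 log2 (432 tested, 218 lower), against -0.14 for all inside sites. Those at an annotated end had 0.07 (139 tested, 43 lower), against 0.26. The shares called lower were 50.46% of light-phase inside sites, against 41.89% of all inside sites, and 30.94% of light-phase end sites, against 27.85%. Sites in general split the same way, so the split by position is not particular to the set. Internal sites of Pik3r1, a regulatory subunit of PI3 kinase, and of Prkd3, a protein kinase D, marked different extremes. The Pik3r1 site was at 3.77 ± 0.17 log2 in nuclear RNA and -4.0 ± 0.24 in polysomal RNA, with 25.8 to 221 CPM in nuclear light libraries and 0 to 2.18 CPM in polysomal ones. The Prkd3 site was low in both, at -3.42 ± 0.18 and -3.74 ± 0.26. Nuclear levels were also far above total RNA at sites of the aminopeptidase gene Aopep (3.93 ± 0.16) and the sialyltransferase gene St3gal4 (3.86 ± 0.17). They were far below it at sites of Smc6, of a chromosome maintenance complex (-4.04 ± 0.25), and Jade1, of a histone acetyltransferase complex (-3.31 ± 0.21). Polysomal levels were furthest above total RNA at Plac8 (3.92 ± 0.17), at Coa7, a cytochrome oxidase assembly factor (3.07 ± 0.13), at Socs2, a brake on cytokine and growth hormone signalling (2.06 ± 0.27), and at Slc2a2 (1.75 ± 0.15). They were furthest below it at the kinase anchor gene Akap9 (-4.56 ± 0.33) and at Mup9 (-3.84 ± 0.52, of a family of near-identical genes), beside Pik3r1 and Prkd3. All of these passed the edgeR test, and the extremes are those among sites of at least 30 counts per library with 1 direction at all 6 times.

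**Figure D5:**
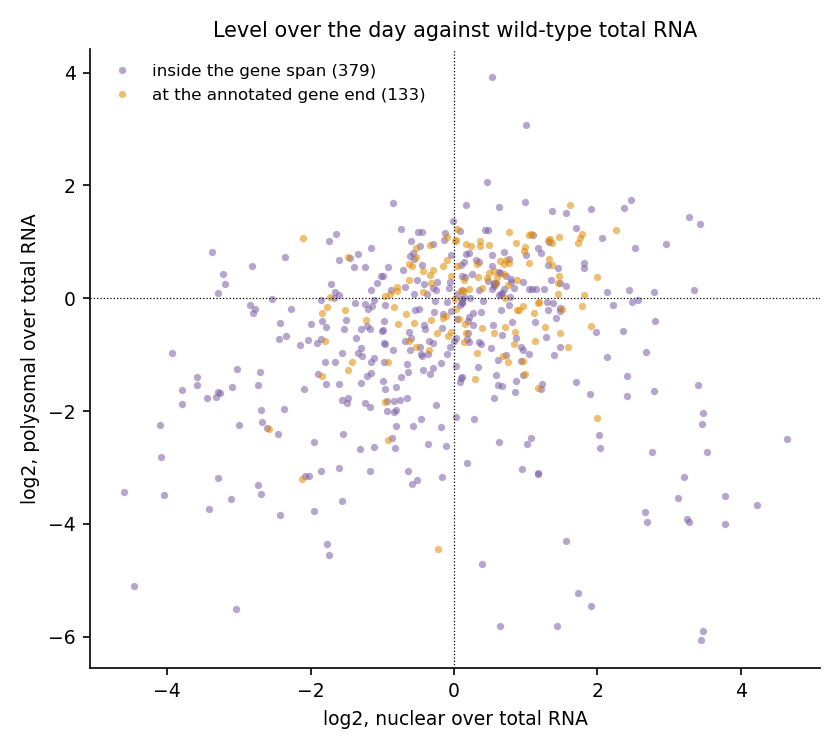
Mean level over the day of light-phase sites tested in both fractions, as log2 of nuclear over total RNA (horizontal axis) and polysomal over total RNA (vertical axis), for 379 sites inside a gene's span (purple) and 133 at an annotated end (orange). Sites far below 0 on the polysomal axis are mostly inside ones, and those to the lower right, high in nuclear and low in polysomal RNA, include Pik3r1 and Alas1.

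The share of a gene's site counts that fell on the light-phase site was called different between light and dark at 1 site. The power of this test for a given change of share was not measured. Usage was tested at sites with at least 5% of the site counts of a gene with a mean of at least 50 counts. Counts were simulated for nuclear RNA over 6349 sites, each drawn separately, and the counts of some sites were raised in the light. The usage test recovered 4 of 58 sites raised 2-fold and 1 of 54 raised 1.5-fold. Raising a site also raises its gene total, so its share moved by less than that. The low counts of calls do not show that usage was stable. In nuclear RNA 0 of 236 light-phase sites were called by edgeR (15 at an unadjusted p below 0.05), against 0.0483% of all sites tested, and in Bmal1-/- RNA 0 of 376 (4 at an unadjusted p below 0.05), against 0.0%. In polysomal RNA 1 of 274 was called, against 0.0274%. This was the end site of Slc38a4, an amino acid transporter gene (chr15:96994809-96995010, minus strand), which took 47.9% ± 7.28 (SD) of the gene's site counts in light libraries and 32.7% ± 4.82 in dark ones (log2 change 0.55 ± 0.10, adjusted p = 0.0456). Without polysomal replicate 1, or without the libraries that stood apart, it no longer passed, at 0.52 and 0.54 log2.

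Some genes held sites with different highest times. Of the 357 genes with several sites of at least 2 CPM, 67 held a light-phase site and a site with a ratio of at least 2 that was highest at another time, and in 10 genes both sites reached 10 CPM. Errfi1, an inhibitor of EGF receptor signalling, had a site of 127 CPM with a ratio of 2.07 highest at ZT10 and a site of 98.7 CPM with a ratio of 2.84 highest at ZT18. Cyp7a1 had a light-phase site of 35.2 CPM highest at ZT10 and another of 21.3 CPM highest at ZT14, the next time sampled. Many of the pairs differed by only 1 such step of 4 h, which need not mean a different rhythm. These wild-type values have no test, and in Errfi1 neither the sites nor their usage were called in the fractions.

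Membership rested on single libraries at some sites. Of the 691 sites, 160 left the set when medians replaced means and 139 left it when the 10 libraries were left out. The Marco site had a wild-type ratio of 9.32, with light libraries from 0.974 to 102 CPM and a median of 3.39 CPM, and it left the set when medians replaced means or when the 10 libraries were left out. Adgre1, a further macrophage marker, and S100a9, a neutrophil marker, did the same. Cd5l, Saa2 and the neutrophil-associated gene Lcn2 left it without the 10 libraries, whereas S100a8 stayed. Summed macrophage markers were at 153 to 807 CPM in wild-type light libraries (median 237) and 118 to 531 CPM in dark ones (median 188), with 7 of 7 markers counted and 0 at 0. Their part in the results was not tested. Choosing on medians gave 994 sites, of which 531 were among the 691, and choosing without those libraries gave 709, of which 552 were.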

How the data were processed

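The authors deposited counts per polyadenylation site and per gene symbol for each of the 144 libraries, unpooled, and a filtered list of 29199 sites. The submitters' processing notes name STAR 2.4.2a, edgeR and HOMER with the builds mm10 and GRCm38.p5, without saying which did what. The filter on sites is not given in the sources used here. CPM used the total of a library's 86780 sites. Sites were given to RefSeq GRCm38.p6 genes whose span on the same strand, extended by 1000 bp past the end, held the site. For genes without a listed strand (140 light-phase sites) the strand with at least 90% of the counts was used.

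Tests were edgeR 4.0.16 quasi-likelihood F tests (TMM, robust, R 4.3.3) on sites averaging 10 counts or more per library, adjusted by Benjamini-Hochberg over all sites of a fit. DESeq2 1.42.0 was an alternative. Usage took log(gene site total + 0.5) as offset. Light means ZT6 and ZT10, dark ZT18 and ZT22. The scripts were tested on simulated data. In simulated nuclear counts the light-dark test recovered 53 of 100 sites raised 2-fold in the light and 8 of 100 raised 1.5-fold, and called 3 unchanged sites. A site that was not called is thus not shown to be unchanged. The 360 within-group pairs of libraries held 0 copies.

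Named sites were the widest wild-type ranges, the largest called changes of each comparison, the edge of the rule, and sites of fixed gene lists; others are said to be chosen later. The members and lists were chosen with earlier results of these data known.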

Additional observations from a re-analysis of the deposited data

Results flagged for a closer look

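Within groups of 6 libraries, 22 of the 114 groups examined held a highest or lowest library whose gap to its neighbour exceeded Dixon's 95% critical value (gap over range). Chance gives about 1 in 20. Each value below is the CPM of that library.

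For the summed level of the 691 sites, 1 Bmal1-/- library at ZT10 reached 12244 CPM and 1 at ZT22 reached 12893 CPM. The Dbp site with a ratio of 134 had a nuclear ZT2 library at 2.32 CPM and a polysomal ZT2 library at 1.51 CPM, at a time when the site is near its lowest. The shallower Nr1d1 site had single Bmal1-/- libraries at 2.07 CPM (ZT2), 0.876 CPM (ZT6) and 1.39 CPM (ZT10), a nuclear ZT18 library at 0.620 CPM, and polysomal libraries at 0.245 CPM (ZT18) and 2.31 CPM (ZT22). The Per3 site with a ratio of 28.4 had single Bmal1-/- libraries at 2.85 CPM (ZT2), 1.60 CPM (ZT10) and 2.61 CPM (ZT22) and a polysomal ZT6 library at 6.75 CPM.

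Rgs16 stood out most often. Single Bmal1-/- libraries were at 15.7 CPM (ZT2), 1.17 CPM (ZT6), 3.07 CPM (ZT14) and 1.80 CPM (ZT22), nuclear ones at 2.66 CPM (ZT2), 81.1 CPM (ZT10) and 2.53 CPM (ZT22), and a polysomal one at 4.59 CPM (ZT22). The reason was not tested.

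The change from dark to light differed between Bmal1-/- total RNA and wild-type nuclear RNA at 44 light-phase sites, and between Bmal1-/- total RNA and wild-type polysomal RNA at 39, by interaction tests in edgeR that were added after the data were seen. At each of these sites the change was smaller in Bmal1-/- RNA.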

How the results depend on the processing

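Requiring a mean of 5 CPM left 339 of the 691 sites, and a ratio of 3 left 143. With replicates 1 to 3 alone 21 sites were called in nuclear and 15 in polysomal light against dark, and with replicates 4 to 6 alone 36 and 34, from fewer libraries. A cosine of 24 h tests for any daily rhythm, not for light against dark. In polysomal RNA it called 104 sites whose fitted curve was higher in the light and 11 whose curve was lower. A single fit of all 4 series called 124 polysomal sites higher and 8 lower. The 0 lower calls reported there do not hold under that single fit. In nuclear RNA the cosine called 116 sites with a curve higher in the light and 3 with a lower one. The single fit called 94 nuclear sites higher and 0 lower. The 1 usage call in polysomal RNA became 0 with replicates 1 to 3, with replicates 4 to 6, without polysomal replicate 1 and without the libraries that stood apart. Deviations of same-numbered libraries were compared over 4626 sites: between wild-type total and nuclear RNA their mean correlation was 0.374, above 0.1 in 34 of 36 pairs, against -0.117 between total and polysomal RNA, so numbers do not pair all series. Within each series, same-numbered libraries of different times correlated too. Their means were 0.33 in wild-type total, 0.29 in nuclear, 0.34 in polysomal and 0.29 in Bmal1-/- RNA, against -0.07 to -0.06 between other numbers. The main tests held no term for the number, whereas the replicate block did. With a replicate block 100 nuclear and 87 polysomal light-phase sites were called, usage in polysomal RNA went to 2 sites, Bmal1-/- minus polysomal to 64 and polysomal minus nuclear to 2. Bmal1-/- light against dark gave 0 calls in every alternative run. Of the 37 named values, 5 lost their call in 10 of 320 alternatives and 0 reversed; the cause was not tested. Sites under 10 counts per library could not be tested, which left out 289 light-phase sites in nuclear RNA and 239 in polysomal RNA.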

Other observations

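Genes outside the lists fixed for the study also held several light-phase sites. Clmn, which encodes calmin, had 4 sites, and each was called higher in the light in nuclear RNA, at 1.07 to 1.12 log2. The site with the most nuclear RNA ran from 104.9 to 203.2 CPM in the light and from 38.5 to 101.2 CPM in the dark, with no overlap, and its polysomal change was 1.08 ± 0.22 log2 (adjusted p = 0.00271, edgeR). Gpr146, a G protein-coupled receptor gene, had 3 sites called in nuclear RNA, and its end site was at 1.14 ± 0.18 and 1.11 ± 0.15 log2 in the fractions. These genes were picked for their number of sites after the values were seen.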
